A study of Mus musculus with 12 samples.

Results

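The DYRK and HIPK kinases are 9 related protein kinases, encoded in the mouse by Dyrk1a, Dyrk1b, Dyrk2, Dyrk3, Dyrk4, Hipk1, Hipk2, Hipk3 and Hipk4. All 9 were measured, among 19946 genes in all, in whole testes of adult mice whose spermatogenesis had been brought into step. The members were chosen by family name, and the family was selected on measured values as well, since Dyrk4 was about 10 times lower in XII-I than in IX-XI. Levels of the members across the groups are therefore given as a description, and test calls for them appear only as counts from which nothing is read. The level of a gene is the log2 of its deposited intensity, read from the brightest probe set that names that gene alone.

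Male mice of a mixed 129/C57BL6 background had received WIN 18,446, an inhibitor of retinoic acid synthesis, at 100 ug per g each day for 7 days, from 2 to 8 days postpartum. A dose of 200 ug of retinoic acid (RA) followed at 9 days postpartum, and testes were taken after 43 to 49 days of recovery and staged by morphology. The 12 arrays form 6 groups of 2, named for their stages of the seminiferous epithelium. In the order of the cycle these are XII-I and II-IV, followed by IV-VI and VII, and last VIII-IX and IX-XI, after which XII-I returns. Strain, tissue and both treatments are shared by all 6 groups, the labels name no untreated control, and they leave unsaid whether samples of a group are different animals, so p-values here measure the spread between samples that may be technical replicates.

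DYRK and HIPK kinases belong to the CMGC group of protein kinases, together with the cyclin-dependent, CLK and GSK3 kinases. A DYRK phosphorylates a tyrosine of its own activation loop while it is being made and afterwards phosphorylates serine and threonine of other proteins. HIPK1, HIPK2 and HIPK3 are mostly nuclear and act on transcription factors and co-repressors, whereas HIPK4 is mainly found in the testis, where it is needed for the shaping of the sperm head. DYRK4 is also known from the testis, in spermatids.

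Promoter windows show a difference in base composition that the choice of members did not use. In the RefSeq promoter table of GRCm38.p6, which covers 250 bases before to 50 bases after a start site, the window of Hipk4 held 4 CpG dinucleotides and that of Dyrk4 held 5, against a median of 7 over 32851 windows. The windows of Dyrk3, Hipk3 and Dyrk2 held 32, 42 and 44. The listed start of Dyrk2 lies 20342 bases inside its annotated gene, whereas those of Dyrk3 and Hipk3 lie at the edge of theirs. Genes with several listed starts differed among their own windows, from 1 to 48 CpG for Hipk2, from 12 to 31 for Hipk1, from 17 to 31 for Dyrk1b and from 3 to 54 for Dyrk1a. The 100 bases before the start of 3 members are printed to show this contrast, 5′ to 3′ on the strand of the gene, with each CpG in capitals. Hipk4 has 1 CpG there, at chr7:27523161-27523260 on the plus strand, and Dyrk3, at chr1:131138235-131138334, and Hipk3, at chr2:104494490-104494589, both on the minus strand, have 17 each.
Hipk4: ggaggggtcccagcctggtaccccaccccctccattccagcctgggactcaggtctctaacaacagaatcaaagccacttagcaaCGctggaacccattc
Dyrk3: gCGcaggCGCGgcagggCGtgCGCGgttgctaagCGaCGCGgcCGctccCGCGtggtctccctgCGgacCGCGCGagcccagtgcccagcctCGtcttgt
Hipk3: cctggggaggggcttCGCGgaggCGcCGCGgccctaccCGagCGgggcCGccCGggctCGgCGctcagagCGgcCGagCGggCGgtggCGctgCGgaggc

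Short DNA motifs were searched in the same windows on both strands. The cyclic AMP response element TGACGTCA lay in no window of a member, and 1.79% of all windows held it. Its half-site TGACG was found for Hipk3 alone, and 20.8% of all windows held that. GTTGCC, the half-site of the X-box, was found for Hipk2 alone, and 12.5% of all windows held that. A kinase counted if any of its windows held a motif, over 14 windows of the 9 kinases, whereas the shares of all windows count single windows. Of the 9 kinases, 8 held the MYB core AACNG in a window, all but Dyrk2, whose window lies inside its gene. Of all windows, 80.3% held the core. In Dyrk4 it stood on the opposite strand with its first base 44 bases before the start, shown in capitals within 30 bases at chr6:126921867-126921896, on the minus strand.
Dyrk4: aaaagggcctgagCGGTTtctacagcaacg
AGGTCA, the half-site of nuclear receptors, lay in windows of 2 kinases, Dyrk1b, 31 bases before the start, and Hipk4, and 16.3% of all windows held that motif. In Hipk4 it stood 170 bases before the start, at chr7:27523079-27523108.
Hipk4: tctgaactcccaAGGTCAaccattaaaatc

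Several arrays lay away from their labels, which bears on every level below. Over the 19937 genes other than the members, the arrays formed a ring, with 43.6% of the variance in the first principal component and 35.4% in the second. Measured as an angle from XII-I sample 1, XII-I sample 2 lay at 42.1 degrees beside II-IV sample 2 at 47.9 degrees, and II-IV sample 1 at 114.3 degrees lay beside IV-VI sample 2 at 120.5 degrees. IX-XI sample 2, at 240.4 degrees, came before both VIII-IX samples, at 274.6 and 306.6 degrees, and IX-XI sample 1 lay at 276.3 degrees. VII sample 2 stood apart in somatic markers. Its summed intensity of 4 macrophage markers was 3684, against 1402 to 1707 in the other 11 arrays, and its sums over 4 markers each of Leydig and Sertoli cells were 15896 and 13550, against at most 11599 and 9847 elsewhere.

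Germ cell markers were measured in all groups, none of them at 0. Round spermatid markers were Acrv1, Spaca1, Acrbp, Tssk1 and Catsper3, and elongating spermatid markers were Tnp1, Tnp2, Prm1, Prm2 and Odf1. Sums over them are RNA intensities of these genes, not counts of cells, and were not checked against cell numbers. The summed intensity of the 5 round spermatid markers, none of which passed the F test over the groups, lay between 12911 and 15452 in XII-I, 16202 and 23724 in II-IV, 24797 and 26626 in IV-VI, 24064 and 26860 in VII, 16434 and 19934 in VIII-IX, and 20123 and 23902 in IX-XI. For the 5 elongating spermatid markers, 2 of which passed, the sums were 47867 and 50794 in XII-I, 37793 and 48201 in II-IV, 33220 and 35695 in IV-VI, 38349 and 40341 in VII, 54277 and 55538 in VIII-IX, and 47746 and 51009 in IX-XI. In whole testis, fewer cells of a type and less RNA per cell cannot be told apart.

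Dyrk4 (probe set 10548069) had by far the widest range of the 9 kinases. Its log2 level was 8.88 and 7.88 in XII-I, 9.31 and 7.68 in II-IV, 10.59 and 9.13 in IV-VI, 11.21 and 11.15 in VII, 11.53 and 10.91 in VIII-IX, and 11.66 and 11.74 in IX-XI. All 6 arrays from VII to IX-XI were higher than all 6 arrays from XII-I to IV-VI. The mean was 11.70 ± 0.06 (SD, n = 2) in IX-XI and 8.38 ± 0.71 in XII-I, a range of 3.32 log2 or 9.96-fold, and 0.12% of all genes ranged more widely. From its lowest array, II-IV sample 2, to its highest, IX-XI sample 2, the level spanned 4.06 log2, or 16.67-fold.

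In the group means, the climb of Dyrk4 was spread over several groups, while its descent lay at a single step. Along the ring the descent took several arrays, from 10.91 in VIII-IX sample 2 to 8.88 and 7.88 in XII-I and 7.68 in II-IV sample 2. In the order of the group means, XII-I at 8.38 and II-IV at 8.49 overlapped, as did II-IV and IV-VI at 9.86. VII, at 11.18, lay 1.32 log2 above IV-VI without overlap, and VIII-IX, at 11.22, overlapped with VII. IX-XI was 0.47 log2 above VIII-IX, which is less than the pooled SD of 0.72. At the step from IX-XI to XII-I the level was 3.32 log2 lower (SE 0.58), with 2.78 log2 between the nearest samples, and this was the 3rd largest fall among all 19946 genes. Leaving out XII-I sample 1 gave a difference of -3.82 and leaving out XII-I sample 2 gave -2.82, and it was -3.27 with IX-XI sample 2 and VIII-IX sample 2 left out. The summed RNA of the round spermatid markers was lower in both XII-I arrays than in both IX-XI arrays. Sums of the elongating spermatid markers overlapped between these groups. The part of cell makeup in the difference was not tested.

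The 2 samples of a group were far apart for Dyrk4 in the early groups. They differed by 1.63 log2 in II-IV, by 1.46 log2 in IV-VI and by 1.00 log2 in XII-I. In the order of the ring, the levels from XII-I sample 1 to VII sample 2 were 8.88, 7.88, 7.68, 9.31, 9.13, 10.59, 11.21 and 11.15, and the last 4 were 11.74, 11.53, 11.66 and 10.91. II-IV sample 1 thus lay near IV-VI sample 2, its neighbour on the ring, and II-IV sample 2 near XII-I sample 2. Neighbours on the ring differed by 0.74 log2 on average and samples of a group by 0.81 log2.

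**Figure D1:**
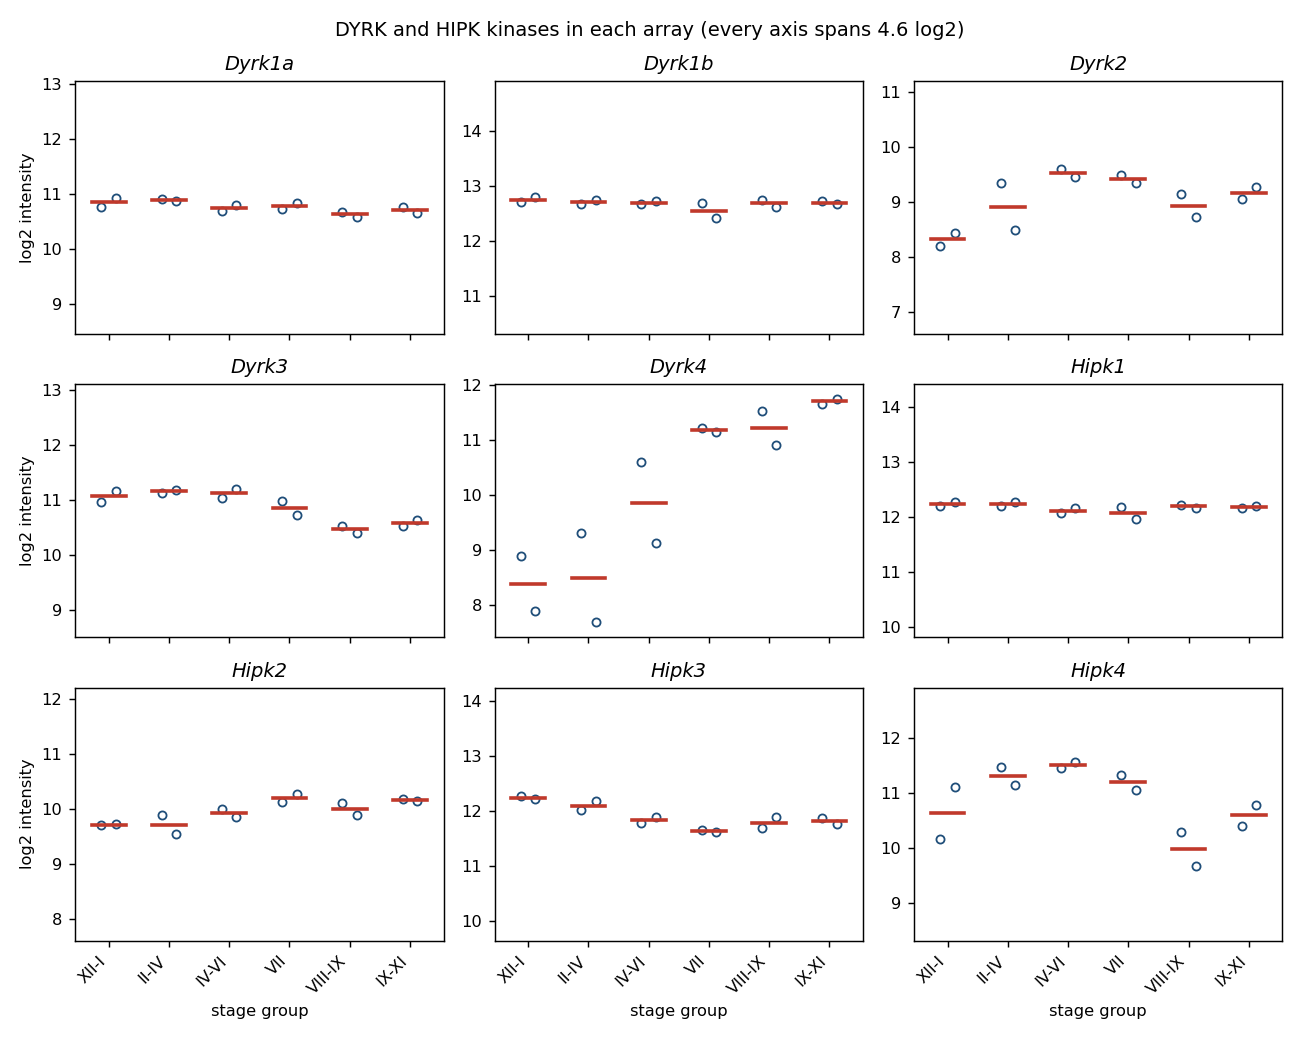
Log2 intensity (y axis) of each kinase in each of the 6 stage groups (x axis); every circle is an array, every bar a group mean of 2 arrays, and every y axis spans the same 4.6 log2. Dyrk4 runs from 7.68 to 11.74, Hipk4 and Dyrk2 vary less, and Dyrk1a, Dyrk1b and Hipk1 lie nearly level.

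Hipk2 (probe set 10544114), a nuclear kinase that acts on p53 and on co-repressors, was high and low where Dyrk4 was, over a much smaller range. The arrays read 9.71 and 9.73 in XII-I, 9.89 and 9.55 in II-IV, 10.01 and 9.86 in IV-VI, 10.14 and 10.28 in VII, 10.12 and 9.90 in VIII-IX, and 10.19 and 10.16 in IX-XI on the log2 scale. VII and IX-XI were the highest groups and did not differ beyond the pooled SD of 0.13. The mean was 10.21 ± 0.10 (SD, n = 2) in VII and 9.72 ± 0.01 in XII-I, a range of 0.49 log2 or 1.41-fold, and 32.36% of all genes ranged more widely. XII-I was 0.46 log2 below IX-XI (SE 0.13), with 0.44 log2 between the nearest samples. Its highest array was VII sample 2, the array with high somatic markers, and without it the range was 0.46 log2.

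Hipk4 (probe set 10551377), the kinase of sperm head shaping, was highest from II-IV to VII and lowest in VIII-IX. On the log2 scale it read 10.17 and 11.11 in XII-I, 11.48 and 11.15 in II-IV, 11.46 and 11.57 in IV-VI, 11.33 and 11.07 in VII, 10.30 and 9.68 in VIII-IX, and 10.41 and 10.79 in IX-XI. All arrays of II-IV, IV-VI and VII lay above all arrays of VIII-IX and IX-XI. The mean was 11.52 ± 0.07 (SD, n = 2) in IV-VI and 9.99 ± 0.44 in VIII-IX, a range of 1.52 log2 or 2.87-fold, and 3.28% of all genes ranged more widely. From VII to VIII-IX the mean was 1.21 log2 lower (SE 0.30), or 2.31-fold, with 0.76 log2 between the nearest samples. The following group, IX-XI, was 0.61 log2 above VIII-IX, and without VIII-IX sample 2 the range over the groups was 1.21 log2.

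Hipk4 and Dyrk4 differed in where they were low. At the step from IX-XI to XII-I, where Dyrk4 was at its widest difference, Hipk4 was 0.04 log2 higher and its samples overlapped. That small difference rested on samples of XII-I that lay 0.94 log2 apart, and leaving out XII-I sample 1 gave 0.51 and XII-I sample 2 gave -0.43. II-IV was 0.67 log2 above XII-I without overlap, by 0.04 log2 between the nearest samples. Along the ring, the Hipk4 levels from XII-I sample 1 onward were 10.17, 11.11, 11.15, 11.48, 11.57, 11.46, 11.33, 11.07, 10.79, 10.30, 10.41 and 9.68, so IX-XI sample 2 lay between VII and VIII-IX in level as on the ring. The summed RNA of the round spermatid markers was also at its highest in IV-VI and VII and lower in VIII-IX. The part of cell makeup in the Hipk4 levels was not tested.

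Dyrk2 (probe set 10372745), a kinase that works as a scaffold of the EDVP ubiquitin ligase and acts on katanin, was lowest in XII-I and highest in IV-VI. The log2 levels were 8.20 and 8.44 in XII-I, 9.34 and 8.49 in II-IV, 9.60 and 9.45 in IV-VI, 9.50 and 9.35 in VII, 9.14 and 8.72 in VIII-IX, and 9.05 and 9.27 in IX-XI. Both XII-I arrays lay below the other 10 arrays. The mean was 9.52 ± 0.11 (SD, n = 2) in IV-VI and 8.32 ± 0.17 in XII-I, a range of 1.20 log2 or 2.29-fold, and 6.1% of all genes ranged more widely. In the order of the means, XII-I was followed by II-IV at 8.92 and VIII-IX at 8.93, which overlapped, then IX-XI at 9.16, VII at 9.42 and IV-VI, and the last pair did not differ beyond the pooled SD of 0.30. XII-I was 0.84 log2 below IX-XI (SE 0.25), or 1.79-fold.

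Dyrk2 ran smoothly when the arrays were read along the ring. From XII-I sample 1 its levels were 8.20, 8.44, 8.49, 9.34, 9.45, 9.60, 9.50, 9.35, 9.27, 9.14, 9.05 and 8.72, with 1 peak at IV-VI sample 1 and 1 trough at XII-I sample 1. The II-IV samples, which differed by 0.86 log2, were each close to the array beside them on the ring. Neighbours on the ring differed by 0.23 log2 on average and samples of a group by 0.34 log2. Hipk4 turned 4 times along the ring, and Dyrk4 and Hipk2 turned 8 times each.

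**Figure D2:**
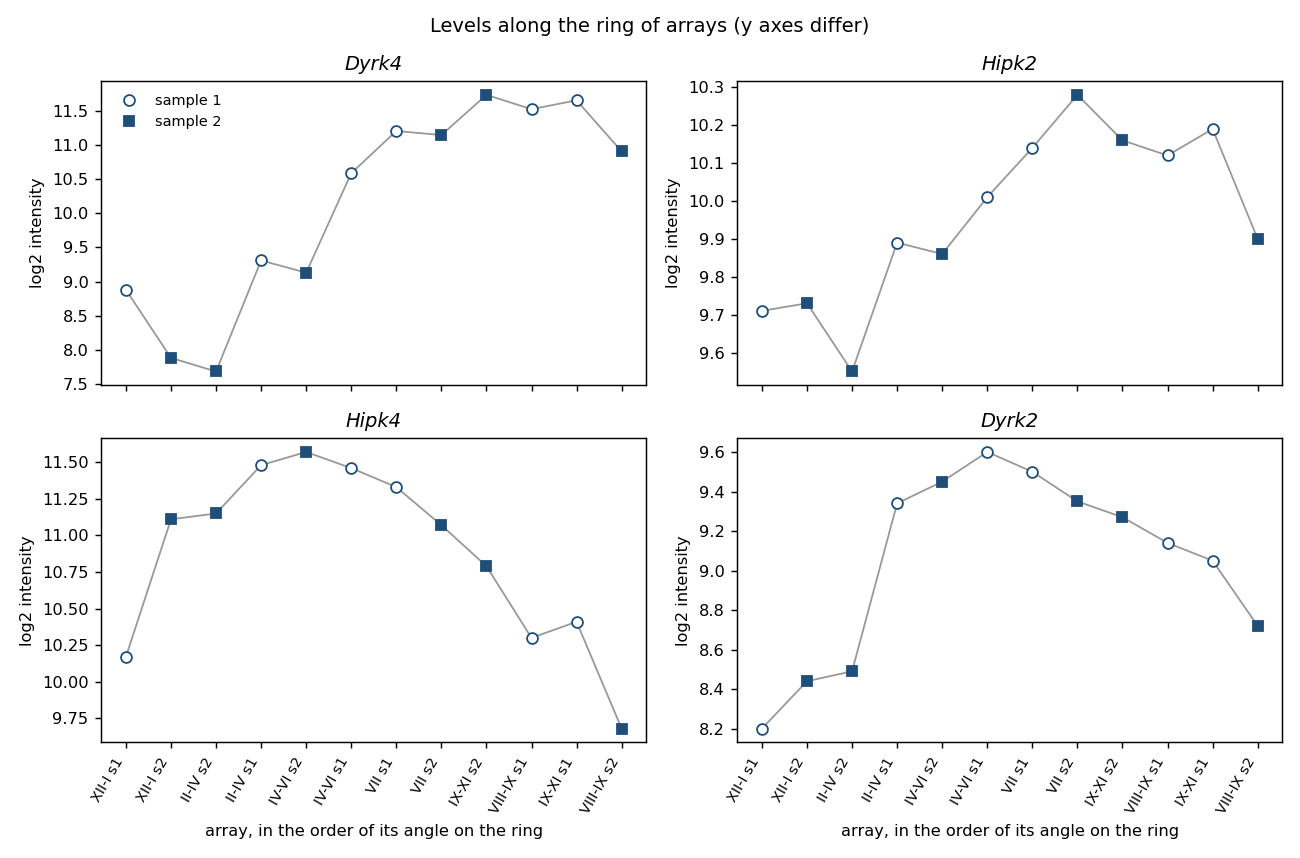
Log2 intensity (y axis, different in each panel) of Dyrk4, Hipk2, Hipk4 and Dyrk2 in the 12 arrays, ordered on the x axis by their angle on the ring of all other genes; circles are sample 1 and squares sample 2 of a group. Dyrk2 has 1 peak, at 9.60 in IV-VI sample 1, and Dyrk4 stays above 10.9 from VII sample 1 to VIII-IX sample 2.

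Dyrk3 (probe set 10357590), known for dissolving stress granules and other condensates in dividing cells, lay high from XII-I to IV-VI and low in VIII-IX and IX-XI. Its log2 level was 10.96 and 11.16 in XII-I, 11.13 and 11.18 in II-IV, 11.03 and 11.20 in IV-VI, 10.98 and 10.72 in VII, 10.53 and 10.40 in VIII-IX, and 10.52 and 10.64 in IX-XI. The first 3 groups overlapped with each other, and VIII-IX and IX-XI overlapped as well. The mean was 11.15 ± 0.03 (SD, n = 2) in II-IV and 10.46 ± 0.09 in VIII-IX, a range of 0.69 log2 or 1.62-fold, and 19.25% of all genes ranged more widely. VIII-IX was 0.39 log2 below VII (SE 0.12), and XII-I was 0.48 log2 above IX-XI (SE 0.12), with no overlap at either step.

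Hipk3 (probe set 10485562), a nuclear kinase that has been linked to steroidogenic gene expression, was highest in XII-I, where Dyrk4 and Dyrk2 were lowest. It read 12.27 and 12.23 in XII-I, 12.02 and 12.18 in II-IV, 11.78 and 11.90 in IV-VI, 11.66 and 11.63 in VII, 11.69 and 11.89 in VIII-IX, and 11.87 and 11.76 in IX-XI on the log2 scale. The mean was lower in each group than in the one before from XII-I to VII, and no neighbouring groups overlapped on that way. In turn, 0.05, 0.12 and 0.13 log2 lay between the nearest samples. The share of all genes without overlap was not computed for these steps. The mean was 12.25 ± 0.02 (SD, n = 2) in XII-I and 11.64 ± 0.02 in VII, a range of 0.61 log2 or 1.52-fold, and 23.89% of all genes ranged more widely. XII-I was 0.43 log2 above IX-XI (SE 0.10), or 1.35-fold, with 0.36 log2 between the nearest samples.

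Dyrk1a, Dyrk1b and Hipk1 varied little, and the median range over all genes was 0.34 log2. Dyrk1a, the kinase that starts assembly of the DREAM complex of cell cycle repression, ranged 0.26 log2, from 10.90 in II-IV to 10.63 in VIII-IX, and its pooled SD was 0.07. Its second probe set ranged 0.22 log2 with another order, highest in IX-XI at 9.64 and lowest in XII-I at 9.42, and the Pearson r between both sets over 12 arrays was -0.02. At IX-XI to XII-I the brighter set was 0.14 log2 higher and the other 0.22 log2 lower, so the direction for Dyrk1a depends on the probe set. Dyrk1b, a close relative of Dyrk1a that holds cells in quiescence, ranged 0.20 log2, from 12.75 in XII-I to 12.54 in VII. Hipk1, a nuclear kinase, ranged 0.17 log2, from 12.24 in II-IV to 12.07 in VII.

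The low mean of Dyrk1b and Hipk1 in VII came from a single array. VII sample 2, with its high macrophage, Leydig and Sertoli markers, was the lowest array for Dyrk1b at 12.41 and for Hipk1 at 11.96, whereas VII sample 1 read 12.68 and 12.18. Without VII sample 2 the range was 0.07 log2 for Dyrk1b and 0.12 log2 for Hipk1. Of all genes, 63.87% ranged more widely than Dyrk1a, 77.58% more than Dyrk1b and 85.01% more than Hipk1.

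**Figure D3:**
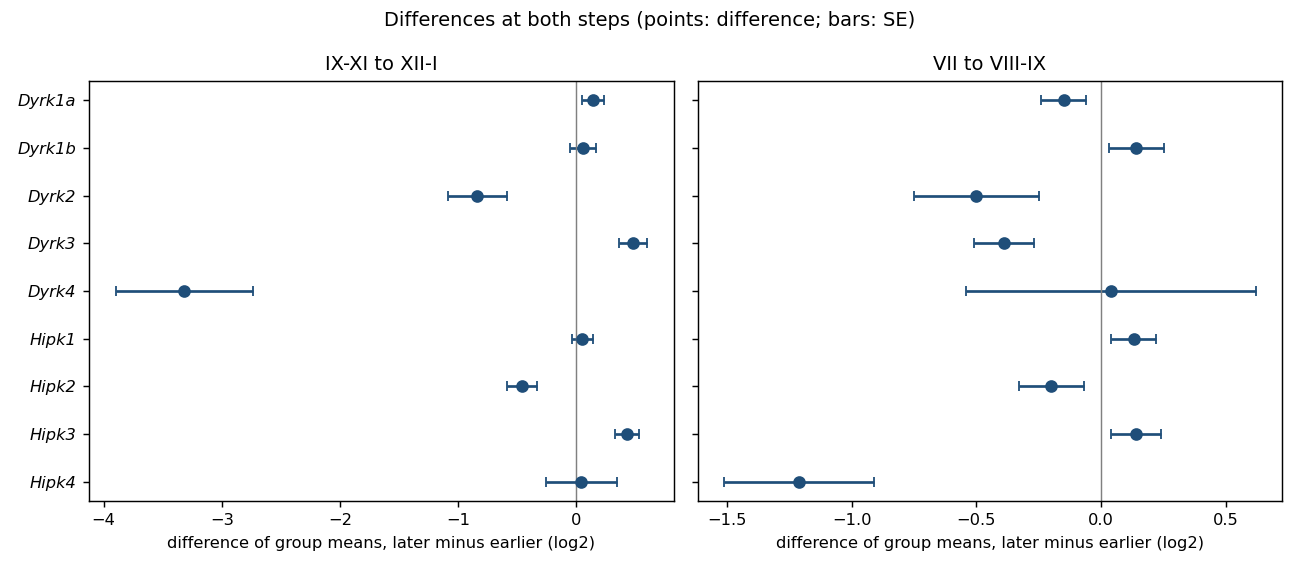
Difference of group means on the log2 scale (x axis, later group minus earlier group) for the 9 kinases (y axis), from IX-XI to XII-I on the left and from VII to VIII-IX on the right; points are differences and bars are standard errors from limma's fit, with 2 arrays a group. At the left step Dyrk4 lies at -3.32, Dyrk2 at -0.84 and Hipk2 at -0.46, and at the right step Hipk4 lies at -1.21.

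Counts of kinases past limma's tests are given beside those over all genes, and nothing is read from them because the family was selected on these arrays. The F test over the 6 groups was passed by 5 of the 9, Dyrk2, Dyrk3, Dyrk4, Hipk3 and Hipk4, and by 19.9% of all genes at an adjusted p under 0.05. At IX-XI to XII-I, Dyrk4 and Hipk2 were called lower and Dyrk3 and Hipk3 higher, against 4.63% and 7.33% of all genes. The family was selected on the fall of Dyrk4 at this same step, so its call there is no evidence. Samples did not overlap at that step for 3 lower kinases (Dyrk2, Dyrk4 and Hipk2) and 4 higher ones (Dyrk1a, Dyrk3, Hipk1 and Hipk3), against 31% and 26.9% of all genes. At VII to VIII-IX, limma called 0 of the 9 in either direction (2 lower and 0 higher at an unadjusted p under 0.05), against 1.66% of all genes lower and 2.27% higher. The number of calls changed when single arrays were left out. Such a fit also has fewer residual degrees of freedom and a group with a single array. Loss of power and dependence on an array cannot be told apart in these fits. With each array left out in turn, 2 to 5 of the 9 passed the F test, with 2 without VII sample 2 or VIII-IX sample 2, and 3 without XII-I sample 1, VII sample 1, VIII-IX sample 1 or either sample of IV-VI or IX-XI. With VIII-IX sample 2 and IX-XI sample 2 both left out, limma's F test was passed by 0 of the 9 (6 at an unadjusted p under 0.05). At IX-XI to XII-I, limma called 0 of the 9 in either direction without IX-XI sample 1 or XII-I sample 2 (3 lower and 2 higher at an unadjusted p under 0.05) and without IX-XI sample 2 (2 lower and 2 higher unadjusted). At that step 1 lower and 1 higher kinase were called without XII-I sample 1, and 1 lower and 2 higher without either sample of IV-VI, VII or VIII-IX. At each of the other 4 steps limma called 0 of all genes, with 366 to 1256 at an unadjusted p under 0.05 in each direction.

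Among themselves the kinases fell into opposite patterns. Over the 12 arrays, Dyrk4 and Hipk2 had a Pearson r of 0.92 (Spearman 0.90), Dyrk1b and Hipk1 of 0.86 (0.60) and Dyrk3 and Hipk4 of 0.79 (0.82), the highest of 36 pairs. The r of Dyrk1b and Hipk1 leans on VII sample 2, the lowest array of both. The most opposite pairs were Hipk2 and Hipk3 at -0.90 (-0.88), Dyrk4 and Hipk3 at -0.87 (-0.79) and Dyrk2 and Hipk3 at -0.81 (-0.67). Dyrk4 and Hipk4, the kinases known from spermatids, stood at -0.32 (-0.32). The points share their arrays and stages, so these values only describe likeness of pattern.

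**Figure D4:**
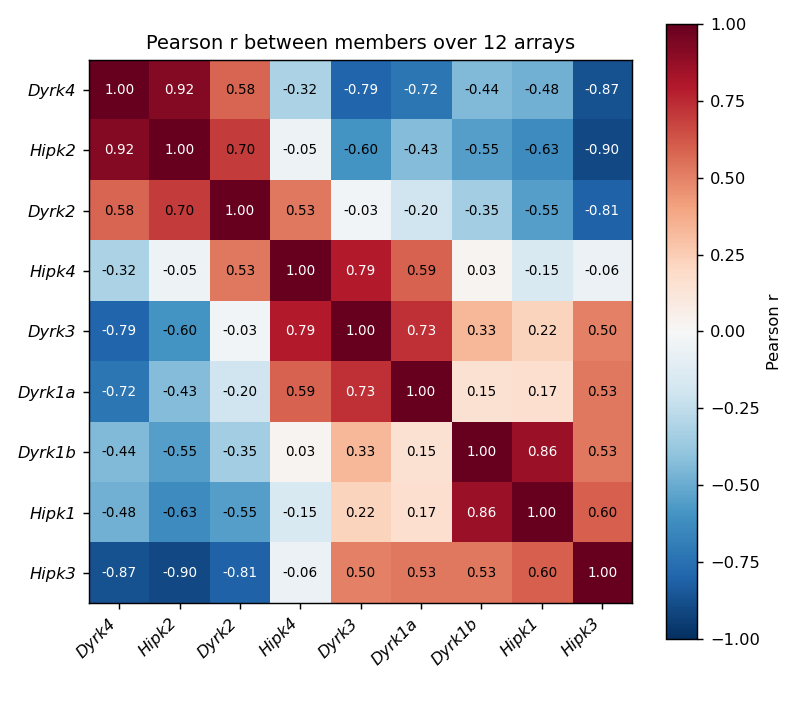
Pearson r between every pair of the 9 kinases (both axes) over the 12 arrays, with red for positive and blue for negative values. Dyrk4 and Hipk2 stand at 0.92 and both are opposite to Hipk3, at -0.87 and -0.90, while Hipk4 goes with Dyrk3 at 0.79.

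The genes most like a kinase were sought over the 12 arrays, for kinases whose group means ranged at least 0.5 log2. Candidates ranged at least 1 log2, or 0.5 log2 for kinases below 1 log2, and could range less than the kinase. For Dyrk4 the closest of 1578 candidates was Slc36a3, of a family of proton-coupled amino acid transporters, with a Pearson r of 0.996 (Spearman 0.979) and a range of 9.57-fold. Cd109, a membrane-anchored protein, followed at 0.991, then Tmem161b at 0.991, Cd46, a complement regulator, at 0.989, Kbtbd7 at 0.989, Tmco5b at 0.989, Banf2 at 0.988 and Zic5 at 0.988. All 8 were highest in IX-XI, and their ranges ran from 3.21-fold for Tmem161b to 13.11-fold for Cd109. In all, 158 candidates had an r over 0.9 with Dyrk4. Zic5 has a second probe set, which had an r of 0.71 with Dyrk4 and ranged 0.47 log2, so its place rests on the brighter set.

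Other kinases had other companions. Hipk4 was most like Ppil6 at an r of 0.997, Tmem178b at 0.995 and Ptprj, a receptor tyrosine phosphatase, at 0.993, all highest in IV-VI and lowest in VIII-IX. Dyrk2 was most like Ttc23l at 0.993, Stk-ps2 at 0.991 and Prox2, a homeobox gene, at 0.991, all lowest in XII-I. For Dyrk3 the closest genes were Sqle, squalene epoxidase of cholesterol synthesis, at 0.987, and Sec61a2 and Dis3l2 at 0.986. For Hipk3 they were Trafd1 at 0.989, Ptpn1, a tyrosine phosphatase, at 0.988 and Ldlrad4 at 0.986, all highest in XII-I and lowest in VII.

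Partners and substrates of the DYRK kinases were listed by their known roles. Of 33 listed, 32 were measured and 5 passed limma's F test (15.6%, against 19.9% of all genes). The median range was 0.35 log2, against 0.34 log2 over all genes. At IX-XI to XII-I limma called 4.63% of all genes lower and 7.33% higher, and at VII to VIII-IX 1.66% and 2.27%. Dcaf7, the adaptor that holds DYRK1A and DYRK1B, stood at 12.59 ± 0.06 (SD, n = 2) in XII-I and 11.76 ± 0.07 in IX-XI, 1.78-fold apart (adjusted p = 0.0139 in limma's F test). Cyclin D1 (Ccnd1), whose breakdown DYRK1B promotes, stood at 9.36 ± 0.10 in IV-VI and 8.56 ± 0.04 in VIII-IX, 1.74-fold apart (adjusted p = 0.0192). Dnm1 and Synj1, proteins of endocytosis that DYRK1A phosphorylates, ranged 1.43-fold and 1.40-fold (adjusted p = 0.0303 and 0.0468), and Cdkn1b ranged 1.28-fold. From IX-XI to XII-I, Dcaf7 rose by 0.83 log2 and Cdkn1b, a cyclin-dependent kinase inhibitor, by 0.33 log2, while limma called 0 lower (2 at an unadjusted p under 0.05). At VII to VIII-IX, Dnm1 rose by 0.52 log2 and Ccnd1 fell by 0.65 log2.

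Among partners of the HIPK kinases, 11 of the 28 measured of 34 passed the F test (39.3%, against 19.9% of all genes). The median range of the list was 0.40 log2, against 0.34 log2 over all genes. VIII-IX was the highest group for 4 of the 11, and the other 7 were spread over all other groups. No share over all genes was computed for this count. Lef1, a transcription factor of Wnt signalling, stood at 10.60 ± 0.03 (SD, n = 2) in VIII-IX and 9.35 ± 0.22 in IV-VI, 2.38-fold apart (adjusted p = 0.0419 in limma's F test). Its relative Tcf7l2 had its high of 8.83 ± 0.04 in IX-XI and its low of 8.00 ± 0.10 in IV-VI, 1.78-fold apart (adjusted p = 0.0117), and the co-repressor Ctbp2 ranged 1.71-fold between VIII-IX and its low in IV-VI (adjusted p = 0.0170). Siah1a, a ubiquitin ligase that acts on HIPK2, ranged 1.61-fold (adjusted p = 0.0427). From IX-XI to XII-I, Wsb1, which also marks HIPK2 for breakdown, and Senp1, which removes SUMO, rose by 0.39 and 0.54 log2. At the same step Tcf7l2 fell by 0.66 log2, and Siah1a and the acetyltransferase Ep300 each fell by 0.55 log2. At VII to VIII-IX, Ctbp2 rose by 0.72 log2, and Ctnnb1, the gene of beta-catenin, and Ctbp1 fell by 0.57 and 0.38 log2.

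The DREAM complex, which DYRK1A helps to assemble, and the cell cycle factors tied to it were measured with 14 of 14 genes. Of these 6 passed the F test (42.9%, against 19.9% of all genes). The median range of the 14 was 0.50 log2, against 0.34 log2 over all genes. Foxm1, an activator of genes for mitosis, stood at 11.86 ± 0.01 (SD, n = 2) in XII-I and 10.95 ± 0.13 in IX-XI, 1.87-fold apart (adjusted p = 0.0141 in limma's F test). Lin54, the DNA-binding subunit, ranged 1.82-fold from its high in XII-I to its low in VII (adjusted p = 0.0321). E2f5, a repressor, stood at 10.01 ± 0.18 in IV-VI and 8.58 ± 0.32 in VIII-IX, 2.69-fold apart (adjusted p = 0.0181), and Mybl2 ranged 2.05-fold from II-IV down to VIII-IX (adjusted p = 0.0400). At IX-XI to XII-I, where the brighter Dyrk1a probe set differed by 0.14 log2, Foxm1 rose by 0.90, Lin54 by 0.77 and Lin37 by 0.40 log2, and Tfdp1, a partner of E2F factors, fell by 0.70 log2. At VII to VIII-IX, E2f5 fell by 1.17 log2, and limma called 0 higher (2 at an unadjusted p under 0.05).

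Other kinases of the CMGC group gave 4 of 16 measured past the F test (18 were listed), with a median range of 0.31 log2. Cdkl1 stood at 10.39 ± 0.18 (SD, n = 2) in XII-I and 9.21 ± 0.11 in VII, 2.27-fold apart (adjusted p = 0.0193 in limma's F test). Cilk1, a kinase of cilia, and Cdkl4 each ranged 1.73-fold, and Mok, a relative of Cilk1, 1.43-fold. Between IX-XI and XII-I, Cdkl1, Cilk1 and Mok rose by 0.70, 0.57 and 0.52 log2, and the splicing kinase Clk4 fell by 0.67 log2. At VII to VIII-IX, Cdkl1 and Cdkl4 rose by 0.90 and 0.76 log2.

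Genes of head shaping, acrosome and manchette, the microtubule sleeve of the spermatid nucleus, were listed because Hipk4 acts in that process. Of 28 listed, 26 were measured and 7 passed the F test (26.9%, against 19.9% of all genes). The median range of the 26 was 0.60 log2, against 0.34 log2 over all genes. XII-I was the highest group for 6 of the 7, a count without a share over all genes beside it, from which nothing is read. Clip1, a protein of microtubule ends, was the exception, with 10.93 ± 0.10 (SD, n = 2) in IV-VI and 9.62 ± 0.36 in XII-I, 2.48-fold apart (adjusted p = 0.0436 in limma's F test). Dpy19l2, which anchors the acrosome to the nucleus, ranged 1.68-fold from XII-I down to VII (adjusted p = 0.0319), and Katnal1, a katanin subunit, and Golga3, a golgin, ranged 1.79-fold and 1.53-fold. At IX-XI to XII-I, Dpy19l2, Ccdc42 and Katnal2 rose by 0.69, 0.51 and 0.41 log2, and Clip1 and the actin-like gene Actl7a fell by 1.04 and 0.73 log2. At VII to VIII-IX limma called 0 of the 26, with 3 lower and 8 higher at an unadjusted p under 0.05.

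The calls for these lists changed when single arrays were left out. As for the kinases, such fits also have fewer residual degrees of freedom, so loss of power and dependence on an array cannot be told apart. With VIII-IX sample 2 and IX-XI sample 2 left out, limma called 0 genes of any of the 5 lists in the F test (8 DYRK partners, 10 HIPK partners, 5 DREAM genes, 4 CMGC kinases and 11 head shaping genes at an unadjusted p under 0.05). The 11 HIPK partners came to 2 without either sample of IV-VI, VIII-IX or IX-XI, to 5 without VII sample 2 and to 6 without XII-I sample 1. The 6 DREAM genes came to 3 without IX-XI sample 1 and to 2 without IX-XI sample 2 or either sample of IV-VI, VII or VIII-IX. The 5 DYRK partners came to 1 without either VIII-IX sample or IV-VI sample 1, to 2 without either IX-XI sample or VII sample 2, and to 3 without IV-VI sample 2 or VII sample 1. The 4 CMGC kinases came to 1 without VII sample 2 and to 2 without either IX-XI sample, XII-I sample 1 or VIII-IX sample 1. The 7 head shaping genes came by limma to 0 without VIII-IX sample 2 or IX-XI sample 1 (17 and 18 at an unadjusted p under 0.05), to 2 without VII sample 1, and to 1 without VII sample 2, VIII-IX sample 1, IX-XI sample 2 or either IV-VI sample. Dcaf7, Tcf7l2, Ctbp2, Foxm1, E2f5 and Cdkl4 passed the F test with each of the 12 arrays left out in turn. Cdkl1 did so except without VII sample 2, and Ccnd1 except without IV-VI sample 1 or either VIII-IX sample. The other list genes past the F test passed it in 1 to 6 of these 12 fits. At IX-XI to XII-I, Dcaf7 and Foxm1 lost their call without IX-XI sample 2 alone, and the other list genes called there kept it in 2 to 10 of the 12 fits. All 8 list genes named above at VII to VIII-IX (Dnm1, Ccnd1, Ctbp2, Ctnnb1, Ctbp1, E2f5, Cdkl1 and Cdkl4) lost their call without VII sample 2 or either sample of IV-VI, VIII-IX or IX-XI. In those 7 fits limma called 0 genes of the 5 lists at that step, with 17 to 38 at an unadjusted p under 0.05, and 0 to 37 of all genes, against 784 with all arrays. Ccnd1, Ctbp1 and E2f5 also lost it without VII sample 1, and Ctbp1 with an intensity trend in the prior variance. With array quality weights limma likewise called 0 list genes at that step (35 unadjusted).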

How the data were processed

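Whole-testis RNA of 12 samples, 2 in each of 6 stage groups taken from the labels, was read on Mouse Gene 1.0 ST arrays. The authors deposited linear intensity values in 1 table, computed by RMA per the submitters' processing notes, its version not given in the sources used here. Intensity ran from 24.97 to 21760 and array medians from 296.9 to 309.1. RMA makes the arrays alike in distribution, so a difference is relative to other transcripts. Here log2 of the intensity was taken with nothing added. Of 28853 probe sets, 21797 named 1 gene, 1613 several and 5443 were unlisted. The brightest probe set of each gene was kept, which gave 19946 genes.

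A model of 6 group means was fitted to all genes with limma 3.58.1 in R 4.3.3 (6 residual degrees of freedom). A run on simulated data had independent noise and large changes in XII-I alone. It checked the code and does not speak to smaller differences. An F test over the groups and contrasts of the 6 neighbouring steps were adjusted by Benjamini-Hochberg over all genes, at a threshold of 0.05. The number of arrays limits the precision.

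The members and lists were chosen with earlier results of these data known. Named genes are every member, up to 4 genes of each list that range most widely of those passing the F test, and the genes with the highest Pearson r (8 for Dyrk4, 3 for other members ranging at least 0.5 log2), among genes ranging at least 1 log2, or 0.5 log2 for members below 1. The search skipped predicted genes, small RNAs and receptor families. Genes named beside a step count are all those called. Alternatives were repeated quantile scaling, no dim genes, array weights, an intensity trend, a replicate block, the mean over probe sets and left-out arrays.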

Additional observations from a re-analysis of the deposited data

How the results depend on the processing

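With array quality weights, 12 head shaping genes passed the F test, and with an intensity trend in the prior variance 11 head shaping genes and 3 DYRK partners did. With IX-XI sample 2 and VIII-IX sample 2 both left out, 19 genes in all passed the F test (5271 at an unadjusted p under 0.05), limma called 0 lower and 0 higher at IX-XI to XII-I (1454 and 1837 unadjusted), and each list had 0. Leaving out each array in turn gave 1522 to 4269 genes past the F test, 6 to 1185 lower and 5 to 1586 higher at IX-XI to XII-I, 1 to 6 DYRK partners, 2 to 11 HIPK partners, 2 to 6 DREAM genes, 1 to 5 CMGC relatives and 0 to 10 head shaping genes (17 and 18 unadjusted where it was 0). The F count moved most without VII sample 2 (1983) or either sample of IV-VI (1645 and 1594), VIII-IX (1522 and 1555) or IX-XI (1544 and 1728). The lower and higher step counts were 6 and 5 with IX-XI sample 2 left out, 95 and 300 with sample 1 of that group left out, 224 and 545 with XII-I sample 2 left out, and 801 and 815 with XII-I sample 1 left out. Leaving out the dimmest 30% of genes gave 4132 genes past the F test, 6 DYRK partners, 7 DREAM genes and 10 head shaping genes. For the 9 kinases, the difference of Dyrk1a at IX-XI to XII-I turned from 0.14 to -0.043 log2 with the mean over probe sets. The labels do not say whether the same sample number pairs arrays. Deviations of same-numbered samples correlated at -0.354 to 0.541 over 15 pairs of groups, 7 of them over 0.1 and 6 below 0. Samples of a group also lay apart on the ring, so these values cannot tell whether the numbers pair arrays. With the replicate block, 4147 genes passed the F test, 1310 were lower and 1491 higher, and the lists had 5, 8, 6, 5 and 9 genes in the same order. These settings were applied to the step from VII to VIII-IX and to the calls of the 9 kinases after seeing the data. At that step the block left 1 of the 8 list genes and gave 260 calls over all genes, against 784, and 4 kinases passed the F test with it. The number of arrays, 2 a group, limits all counts.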

Other observations

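Measured neighbours of every kinase were compared with that kinase over the arrays, and Akap3 was picked as the neighbour with the highest r. Akap3, a scaffold protein of the sperm tail, lies beside Dyrk4 in the RefSeq gene table and was looked at after its values had been seen. Its log2 level was 12.33 and 11.68 in XII-I, 12.26 and 11.75 in II-IV, 12.48 and 12.37 in IV-VI, 12.60 and 12.45 in VII, 12.81 and 12.70 in VIII-IX, and 12.71 and 12.61 in IX-XI. Over the 12 arrays it had a Pearson r of 0.92 with Dyrk4 (Spearman 0.87), with a range of 0.75 log2, and it did not pass limma's F test (adjusted p = 0.0827). Rad51ap1, the neighbour on the other side, had an r of 0.15 with Dyrk4.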
